A study of Mus musculus with 8 samples.

Results

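The Cyp2c and Cyp2d cytochromes examined here were 10 genes, 5 of each subfamily, chosen by gene symbol from the 11784 genes of the deposited liver table, and all 10 were found. They were Cyp2c29, Cyp2c37, Cyp2c44, Cyp2c50, Cyp2c54, Cyp2d9, Cyp2d10, Cyp2d22, Cyp2d26 and Cyp2d40. Livers came from male C57BL/6J mice, 4 on the Control diet (TD.140711, 22% of calories from amino acids) and 4 on the Low AA diet (TD.140712, 7.1% of calories from amino acids, with more carbohydrate in their place). Both diets were amino acid defined and began at 9 weeks of age, and the mice were killed about 4 months later after an overnight fast of about 16 hours. The comparison asks how a diet low in amino acids alters liver gene expression. Each library was 1 mouse, the mice were group housed, and the sources used here do not say which of them shared a cage.

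Enzymes of the Cyp2c and Cyp2d subfamilies are heme proteins of the endoplasmic reticulum that insert 1 oxygen atom into a substrate, with electrons passed on by the reductase Por. In the liver they oxidise drugs, steroids and unsaturated fatty acids, and several mouse Cyp2c enzymes turn arachidonic acid into epoxides that soluble epoxide hydrolase then opens. Some mouse genes of both subfamilies differ in level between males and females under the pattern of growth hormone release, Cyp2d9 being a classical male-predominant gene.

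The deposited values are whole numbers, taken here to be read counts scaled between mice and called scaled read counts. They summed to between 27876664 and 30799385 per mouse with nearly equal medians, so the exact sequencing depth is not known. All 10 hepatocyte markers looked for were in the table, and their summed level ran from 2664867 to 3072034 on the Control diet and from 2885217 to 3096096 on Low AA. Control mouse F2212 stood apart, with 36587 scaled read counts of Cela1, the 1 of 10 pancreatic acinar markers that was in the table, against 130 to 288 in the other mice, and 57733 of the acute-phase gene Saa1 against 68 to 2818. Each member that changed side of its threshold without this mouse is given with and without it. For genes outside the members only the counts called without it are given, under the dependence on processing. The part of either signal in the results was not tested. In whole liver, fewer cells of a type and less RNA per cell cannot be told apart.

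The members lie in 2 gene clusters. In the GENCODE M21 annotation of GRCm38, which the submitters' notes name as mm10, the Cyp2c members were on chromosome 19 and the Cyp2d members on chromosome 15. Cyp2c29 (chr19:39269405-39330713), an arachidonic acid epoxygenase known to be induced through the receptor CAR, came first on chromosome 19. Cyp2c37 (chr19:39992424-40012243), Cyp2c54 (chr19:40037940-40073827) and Cyp2c50 (chr19:40089688-40113950), which also oxidise unsaturated fatty acids, were immediate neighbours. Cyp2c44 (chr19:44005022-44029208), another epoxygenase, carries the newer symbol Cyp2c23 in the annotation and lay apart from the others. On chromosome 15 the order was Cyp2d22 (chr15:82370527-82380260), often studied as a mouse counterpart of human CYP2D6, then Cyp2d10 (chr15:82402846-82407195), the male-predominant steroid hydroxylase Cyp2d9 (chr15:82433437-82456845), Cyp2d40 (chr15:82759833-82764183) and Cyp2d26 (chr15:82790101-82794294). All are protein-coding, and the transcript with the longest coding sequence had 9 exons in 8 of them, 10 in Cyp2d22 and 6 in Cyp2d40.

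The 250 bases before the RefSeq start were on hand for 7 of the 10 members (GRCm38.p6). Those of 4 Cyp2d genes are shown because these genes lie in one cluster but had diet differences of unlike size and sign, described below. They were taken from chr15:82452127-82452376 on the plus strand for Cyp2d9, chr15:82407195-82407444 on the minus strand for Cyp2d10, chr15:82764123-82764372 on the minus strand for Cyp2d40 and chr15:82794246-82794495 on the minus strand for Cyp2d26. Capitals mark a match to the TATA box letters TATAAA, here on the reverse strand.
Cyp2d9: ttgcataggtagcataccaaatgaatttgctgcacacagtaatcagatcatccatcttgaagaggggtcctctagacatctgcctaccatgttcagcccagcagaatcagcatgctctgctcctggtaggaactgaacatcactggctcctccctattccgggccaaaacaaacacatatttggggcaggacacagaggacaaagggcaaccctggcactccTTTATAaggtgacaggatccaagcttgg
Cyp2d10: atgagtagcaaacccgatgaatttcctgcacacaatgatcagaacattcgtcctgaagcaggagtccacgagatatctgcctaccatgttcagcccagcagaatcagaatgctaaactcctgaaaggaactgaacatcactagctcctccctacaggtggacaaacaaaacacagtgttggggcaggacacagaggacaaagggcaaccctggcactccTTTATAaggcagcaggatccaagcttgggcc
Cyp2d40: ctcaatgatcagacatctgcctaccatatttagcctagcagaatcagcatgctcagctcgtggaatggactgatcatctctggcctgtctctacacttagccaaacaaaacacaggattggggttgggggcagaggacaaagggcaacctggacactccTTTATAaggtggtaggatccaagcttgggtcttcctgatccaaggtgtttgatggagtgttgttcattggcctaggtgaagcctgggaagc
Cyp2d26: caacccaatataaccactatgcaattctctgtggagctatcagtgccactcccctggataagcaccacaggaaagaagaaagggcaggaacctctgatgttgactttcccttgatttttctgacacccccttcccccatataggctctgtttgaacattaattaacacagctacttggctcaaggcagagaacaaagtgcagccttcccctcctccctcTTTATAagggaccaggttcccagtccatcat
The Cyp2d9 and Cyp2d10 windows were 84.96% identical over aligned bases, and the Cyp2d40 window was 80.7% identical to that of Cyp2d9, against 63.8% for Cyp2d26. The run cagaggacaaagggcaacc of 19 bases occurred whole in the Cyp2d9, Cyp2d10 and Cyp2d40 windows and not in that of Cyp2d26. It began 57 bases before the start of Cyp2d9, 60 before that of Cyp2d10 and 120 before that of Cyp2d40, and the TATA box letters followed it at 28, 31 and 91 bases. These distances are from the RefSeq start. The GENCODE gene Cyp2d40 begins at chr15:82764183 on the minus strand, inside its window, and from there its distances would be shorter. The GENCODE gene Cyp2d26 begins at chr15:82794294 on the minus strand, also inside its window. The GENCODE gene Cyp2d9 begins at chr15:82433437 on the plus strand, so its window lies within the annotated gene. Both strands were searched for TTCNNNGAA (STAT5), CAAAGTCCA (HNF4A), ATTGATT (ONECUT1) and TATAAA. The TATA box letters were in 5 of the 7 windows of members and in 12.4% of the 32851 windows supplied for all genes. ONECUT1 letters were in the Cyp2c37 window and in 2.62% of all windows, while the STAT5 and HNF4A letters, in 7.02% and 0.384% of all windows, matched none of the 7. A match is a description of letters and not of a bound site.

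How far reads can be told apart between the members bears on each value. The coding sequences of Cyp2c37, Cyp2c50 and Cyp2c54 were 95.1% to 96.1% identical, and those of Cyp2d9 and Cyp2d10 92.5% identical, whereas Cyp2c44 was at most 65.8% identical to any other Cyp2c member. The libraries were read in single 100-base reads. Of the 100-base windows of the Cyp2d10 transcript, 14.8% occurred exactly in a transcript of another gene, most of them in Cyp2d11, and for Cyp2d9 the share was 9.86%, with Cyp2d10 the gene most often shared. The shares were 9.40% for Cyp2c50, 7.59% for Cyp2c54 and 4.70% for Cyp2c37. They were 0% for Cyp2c29, Cyp2c44 and Cyp2d40 and under 0.4% for Cyp2d22 and Cyp2d26. RSEM, which the submitters' notes name, can divide shared reads between genes, but the sources used here do not give its settings. Values of Cyp2d9, Cyp2d10, Cyp2c37, Cyp2c50 and Cyp2c54 are uncertain for that reason.

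None of the 10 members passed an adjusted p under 0.05 between the diets, where 47 genes, 0.399% of the 11784 tested, did (limma on log2(value + 1), trended variance, p adjusted over the whole table by the Benjamini-Hochberg method). At an adjusted p under 0.1, which 1.12% of all genes passed, there was 1 member, Cyp2d9. At an unadjusted p under 0.05 there were 5 members, against 11.8% of all genes, and 4 of them were lower and 1 higher on the Low AA diet, where 6.7% and 5.13% of all genes were. The log2 difference, Low AA minus Control, was below 0 for 9 members and above 0 for Cyp2d40, where 49.5% of all genes were below 0. Its median was -0.30 over the 10 members and 0.0023 over all genes. The members were picked with earlier results of these data known, so the count of lower members is not read as a count for the subfamilies.

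**Figure D1:**
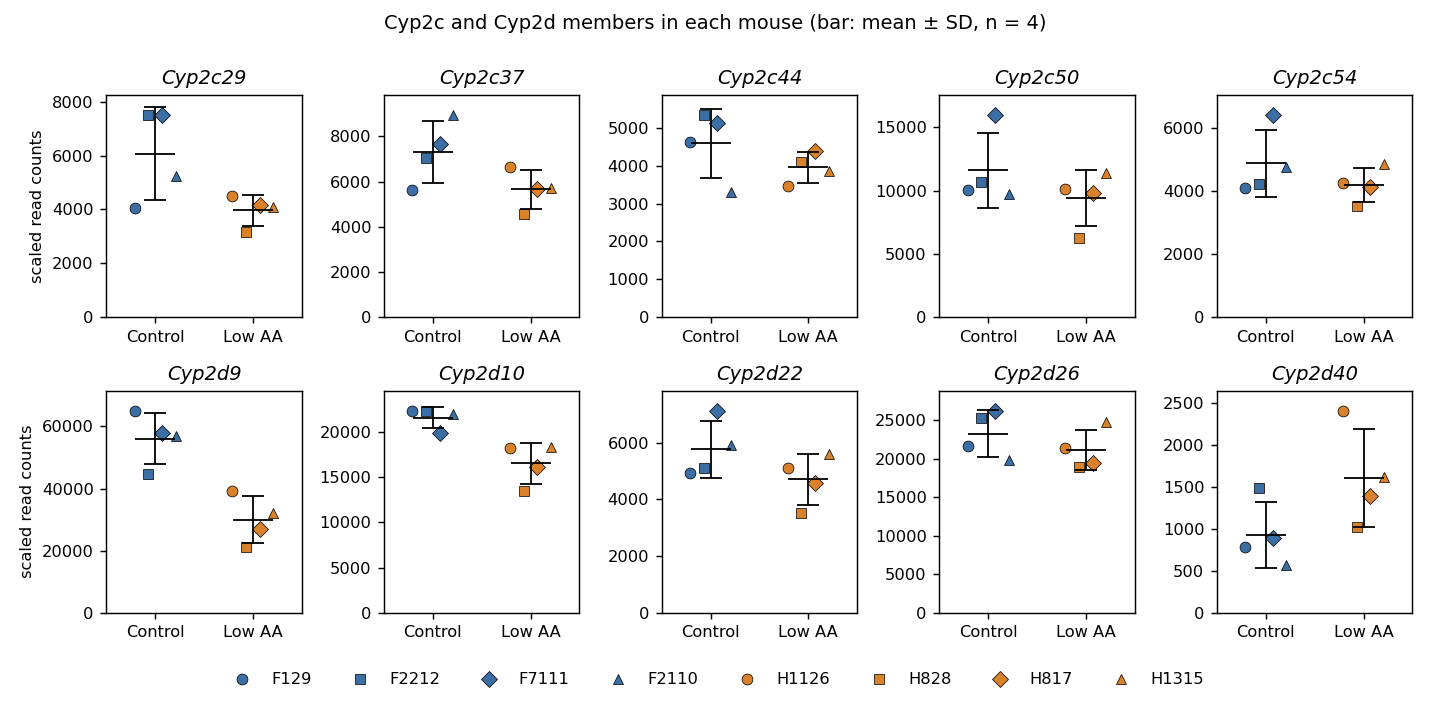
Scaled read counts (y axis, from 0) of each of the 10 members in every mouse, with Control mice in blue, Low AA mice in orange, 1 symbol for each mouse, and a bar at the mean with its SD (n = 4). The diets do not overlap for Cyp2d9 and Cyp2d10, and Cyp2d40 is the one member with the higher mean on the Low AA diet.

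Cyp2d9, the male-predominant steroid hydroxylase, had the largest difference of the members and the smallest p. Its scaled read counts were 64991, 44835, 57742 and 56783 in Control mice F129, F2212, F7111 and F2110, and 39145, 21303, 26994 and 32195 in Low AA mice H1126, H828, H817 and H1315. The lowest Control mouse lay above the highest Low AA mouse. The means were 56088 ± 8349 on the Control diet and 29909 ± 7596 on the Low AA diet (SD, n = 4 each). The log2 difference was -0.93 (standard error, SE, 0.19, 95% interval -1.35 to -0.51, limma adjusted p = 0.0793), which is a fold of 0.525 between means taken on the log2 scale. That result did not pass, although it was the gene with rank 77 by p in the whole table. It passed without Control mouse F2212, the Control mouse nearest to the Low AA mice (log2 difference -1.03, limma adjusted p = 0.0497). That fit called 77 of the 11784 genes, where the fit with all mice called 47. It also passed with weights for each mouse, a fit that called 1.37% of all genes (log2 difference -1.001, limma adjusted p = 0.0287). With the other mice left out 1 at a time the limma adjusted p was between 0.0688 and 0.265.

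Cyp2d10, the nearest relative of Cyp2d9 among the members, was also apart between diets, by less. The Control mice had 22317, 22259, 19826 and 21922 scaled read counts in the same order, and the Low AA mice 18218, 13421, 16081 and 18334. F7111 was the lowest Control mouse and still above the highest Low AA mouse, and H828 was the lowest Low AA mouse. The means were 21581 ± 1183 and 16513.5 ± 2307 (SD, n = 4 each), a log2 difference of -0.40 (SE 0.12, 95% interval -0.66 to -0.13, limma adjusted p = 0.203). Cyp2d9 and Cyp2d10 were the 2 of 10 members whose values did not overlap between diets, both lower on the Low AA diet, against 6.81% of all genes in either direction and 3.55% in that one. For each the exact permutation test over the mice gave p = 0.0286 (two-sided, unadjusted), the smallest that 4 mice against 4 allow.

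Cyp2d40 went the other way. It had 780, 1486, 887 and 567 scaled read counts in Control mice F129, F2212, F7111 and F2110, and 2406, 1028, 1391 and 1617 in Low AA mice H1126, H828, H817 and H1315. The groups overlapped, since F2212 lay above H828 and H817, while the other Control mice lay below all Low AA mice. The means were 930 ± 394 and 1610.5 ± 583 (SD, n = 4 each), a log2 difference of 0.81 (SE 0.30, 95% interval 0.14 to 1.49, limma adjusted p = 0.321). Without F2212 the log2 difference was 1.07 (limma adjusted p = 0.116). Cyp2d40 had the lowest level of the members and the largest spread within a diet, with a coefficient of variation of 36.2% within Low AA and 42.3% within Control.

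The intervals of Cyp2d22 and Cyp2d26 included no difference. Cyp2d22 ranged from 4917 to 7126 scaled read counts on the Control diet and from 3513 to 5614 on Low AA, a log2 difference of -0.30 (95% interval -0.66 to 0.07, limma adjusted p = 0.534). Cyp2d26 ranged from 19806 to 26239 and from 19000 to 24787, a log2 difference of -0.14 (95% interval -0.42 to 0.15, limma adjusted p = 0.752). Neither interval reaches the estimate for Cyp2d9. The Cyp2d22 interval overlaps the 95% interval of Cyp2d9 (-1.35 to -0.51), and the Cyp2d26 interval does not. Differences between genes were not tested. The estimate for Cyp2d22 was -0.16 without H828 and -0.19 without F7111. That for Cyp2d26 was -0.08 without F7111, -0.09 without H828, -0.21 without F2110 and -0.22 without H1315.

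Levels of different genes were set side by side per kilobase of transcript. Per kilobase, Cyp2d9 was the most abundant member in every mouse, with 32761 ± 4877 scaled read counts on the Control diet and 17470 ± 4437 on the Low AA diet. Its share of the 5 Cyp2d members per kilobase was 52.3% ± 4.98 (SD, n = 4) in the Control mice and 40.2% ± 3.67 in the Low AA mice, and F2212 and H1126 met at 45.4%. The share of Cyp2d40 was 1.30% ± 0.628 in the Control mice, at most 2.21%, and 3.15% ± 0.656 in the Low AA mice, at least 2.61%. Its transcript was taken as 1163 bases long, against 1648 to 2769 for the other Cyp2d members. The lengths used upstream are not known, and a longer Cyp2d40 transcript would lower its shares. A share also rises where other members fall, as Cyp2d9 did. On the log2 scale Cyp2d9 exceeded Cyp2d40 within a mouse by 4.91 to 6.64 in the Control mice and by 4.02 to 4.37 in the Low AA mice, which did not overlap. This pair was singled out for its values, so these shares and ratios are given with no test.

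**Figure D2:**
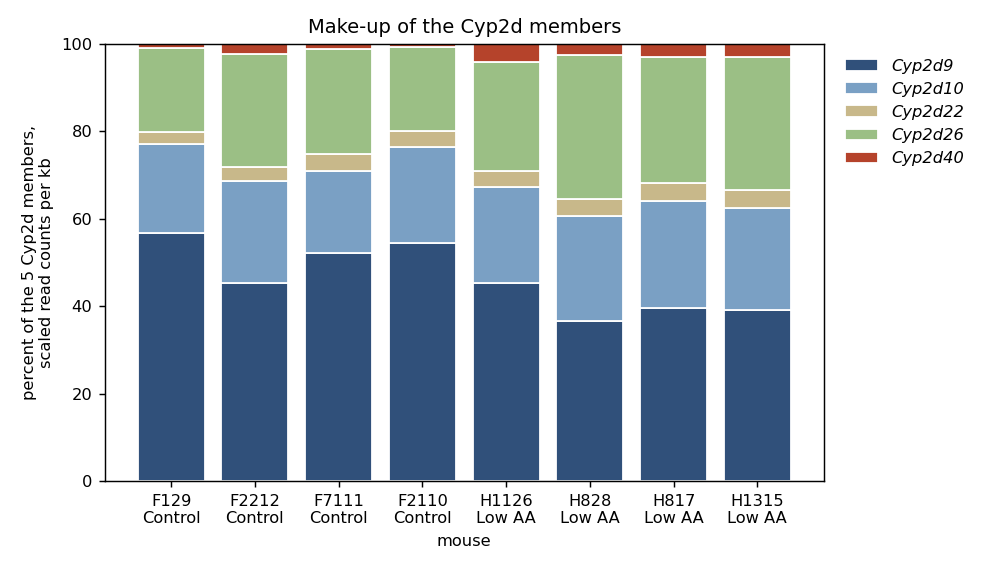
Share of each of the 5 Cyp2d members in their sum (y axis, percent, scaled read counts per kilobase of transcript) in every mouse (x axis, Control mice first), as stacked bars from 0 to 100. The Cyp2d9 part is between 45.4% and 56.9% in the Control mice and between 36.7% and 45.4% in the Low AA mice.

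Among the Cyp2c members, Cyp2c29 had the largest difference. Its scaled read counts were 4048, 7497, 7495 and 5231 in Control mice F129, F2212, F7111 and F2110, and 4503, 3148, 4152 and 4094 in Low AA mice H1126, H828, H817 and H1315. F129 lay among the Low AA mice, and the other Control mice lay above them. The means were 6068 ± 1718 and 3974 ± 580 (SD, n = 4 each), a log2 difference of -0.58 (SE 0.20, 95% interval -1.02 to -0.13, limma adjusted p = 0.280). With weights for each mouse the estimate was -0.37 (limma adjusted p = 0.329). Cyp2c37, the next, had 5647 to 8933 scaled read counts on the Control diet and 4580 to 6654 on the Low AA diet, a log2 difference of -0.37 (SE 0.16, 95% interval -0.71 to -0.02, limma adjusted p = 0.393).

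The other Cyp2c members showed smaller differences within wide intervals. Cyp2c50, with 9760 to 15961 scaled read counts on the Control diet and 6279 to 11385 on the Low AA diet, had a log2 difference of -0.31 (95% interval -0.77 to 0.15, limma adjusted p = 0.635). The highest Control value was that of F7111 and the lowest Low AA value that of H828, and the estimate was -0.14 without F7111, -0.12 without H828 and -0.19 with weights for each mouse. Cyp2c54 had 4103 to 6395 and 3511 to 4837, a log2 difference of -0.21 (95% interval -0.55 to 0.14, limma adjusted p = 0.678), and the estimate was -0.07 without F7111 and -0.12 without H828. Cyp2c44 had 3304 to 5336 and 3455 to 4401, a log2 difference of -0.20 (95% interval -0.54 to 0.14, limma adjusted p = 0.694). Its estimate was -0.35 without F2110 (limma adjusted p = 0.300), -0.12 without F2212 and -0.10 with weights for each mouse. For all 3 the SD of the Control mice was larger than the difference of the means.

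Ordered per kilobase of transcript on the Control diet, the members ran from Cyp2d9 through Cyp2d26 (13693 ± 1783), Cyp2d10 (13095 ± 718), Cyp2c50 (6402 ± 1618), Cyp2c37 (4013 ± 749), Cyp2c29 (3403 ± 964), Cyp2c54 (2725 ± 593), Cyp2c44 (2400 ± 476) and Cyp2d22 (2082 ± 364) to Cyp2d40 (800 ± 339 scaled read counts per kilobase, SD, n = 4). Cyp2d26 and Cyp2d10 did not differ beyond their spread, nor did neighbours in the run from Cyp2c37 to Cyp2d22. On the Low AA diet the order was the same except that Cyp2c54 (2340 ± 305) stood above Cyp2c29 (2229 ± 325), a gap within their spread. In scaled read counts the 10 members together summed to between 133765 and 154451 in the Control mice, 0.488% ± 0.0263 of all counts, and to between 79888 and 115239 in the Low AA mice, 0.348% ± 0.0502 (SD, n = 4). Without Cyp2d9 the sums overlapped, at 78181 to 96709 and 58585 to 80241.

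**Figure D3:**
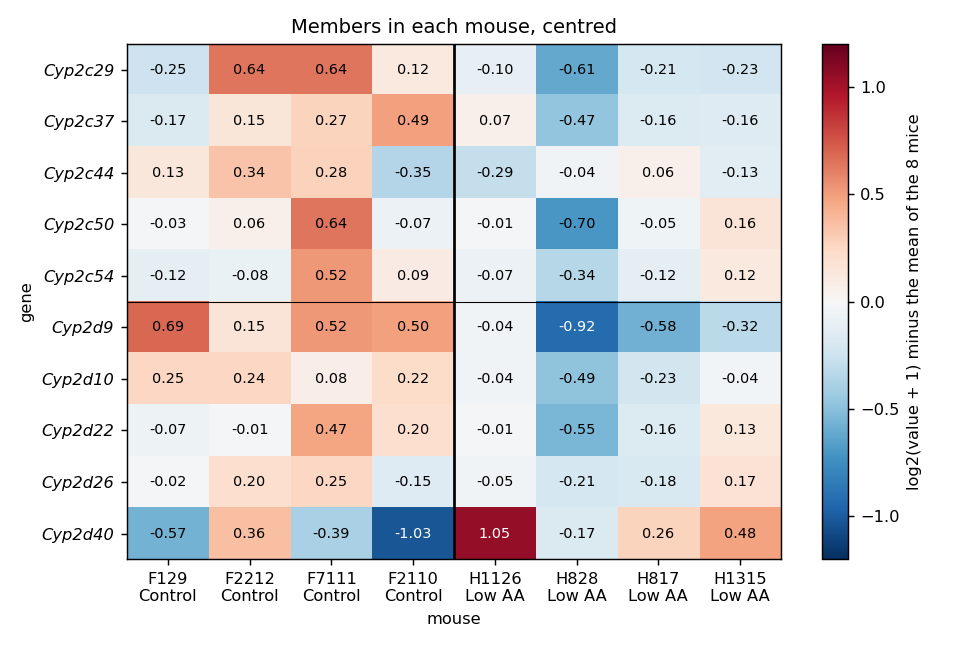
Value of each member (rows) in each mouse (columns, Control mice left of the line), as log2(value + 1) minus the mean of the 8 mice, red above and blue below that mean. H828 is below the mean for all 10 members, from -0.04 for Cyp2c44 to -0.92 for Cyp2d9, and Cyp2d40 is on the other side of its mean from Cyp2d9 in every mouse but F2212 and H828.

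Low AA mouse H828 had the lowest value of its diet for 9 of the 10 members, all but Cyp2c44, and the lowest of its diet for 29.8% of all genes. Averaged over the 5 Cyp2c members, centred log2 values were -0.43 in H828 and between -0.10 and -0.05 in the other Low AA mice, against -0.09 in F129, 0.06 in F2110, 0.22 in F2212 and 0.47 in F7111. The mean difference of the Cyp2c members was -0.33, and it was -0.24 without H828 and -0.23 without F7111. For the 5 Cyp2d members the mean difference was -0.19, and it was -0.44 without Cyp2d40 and -0.07 without H828. Left out 1 at a time, no mouse turned the sign of any of the 10 members.

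**Figure D4:**
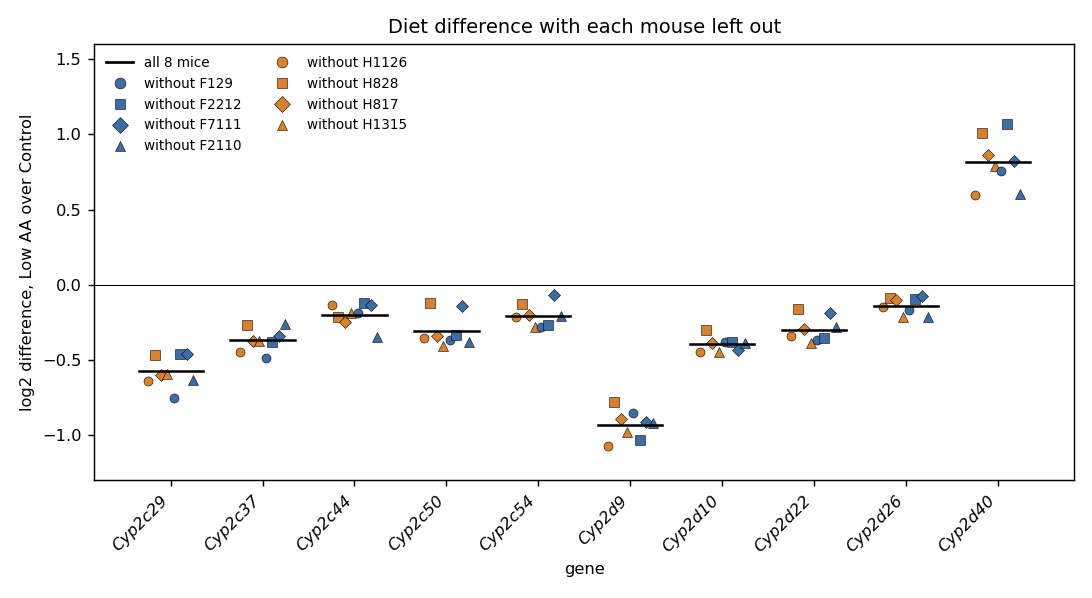
Log2 difference of each member (y axis, Low AA over Control) with all 8 mice (line) and with each mouse left out in turn (symbols, blue for a Control mouse and orange for a Low AA mouse left out). Every symbol is on the same side of 0 as the line, Cyp2d9 runs from -1.07 to -0.78, and the smallest estimate, -0.07, is that of Cyp2c54 without F7111.

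Of the 9 other Cyp2c and Cyp2d genes measured, 0 were called in limma, where 0.399% of all genes were, and 3 were higher at an unadjusted p under 0.05, against 5.13% of all genes. Their estimates were below 0 for 2 and above 0 for 7, where 49.5% of all genes were below 0. The median log2 difference was 0.29, and over all 19 genes of the 2 subfamilies 11 were below 0 and 8 above, with a median of -0.14. The genes between Cyp2c29 and Cyp2c37 on chromosome 19 were Cyp2c38 (log2 difference 0.69), Cyp2c39 (0.84), Cyp2c67 (-0.20), Cyp2c68 (0.29), Cyp2c40 (0.67) and Cyp2c69 (0.77), with limma adjusted p from 0.341 to 0.613. Cyp2c39, Cyp2c40 and Cyp2c69 are known as female-predominant genes of mouse liver. Cyp2c70, an enzyme that makes muricholic acids from bile acids in the mouse, had 0.12 (limma adjusted p = 0.898). In the Cyp2d cluster the pseudogenes Cyp2d13 and Cyp2d37-ps had 0.16 and -0.07 (limma adjusted p = 0.733 and 0.938).

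Low AA mouse H828, the lowest of its diet for most members, had the highest value of its diet for 5 of these 9 genes, against 27.8% of all genes, among them Cyp2c40 with 750 scaled read counts against 218 to 472 in the other Low AA mice, and Cyp2c38 with 2539 against 1798 to 2347. Cyp2c40 and Cyp2c69 shared 44.1% and 36.3% of their 100-base windows with other genes, and Cyp2c67 and Cyp2c68 shared 23.7% and 19.8%. The values of these genes are therefore less certain than those of the members. The HNF4A letters CAAAGTCCA, in 0.384% of all windows, were in the promoter windows of Cyp2c40, Cyp2c67, Cyp2c68, Cyp2c69 and Cyp2c70. They were in none of the 7 member windows on hand, nor in those of Cyp2c38 and Cyp2c39. The coding sequences of Cyp2c40, Cyp2c67, Cyp2c68 and Cyp2c69 were 96.5% to 98.1% identical. A link of these letters to the diet difference was not tested.

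**Figure D5:**
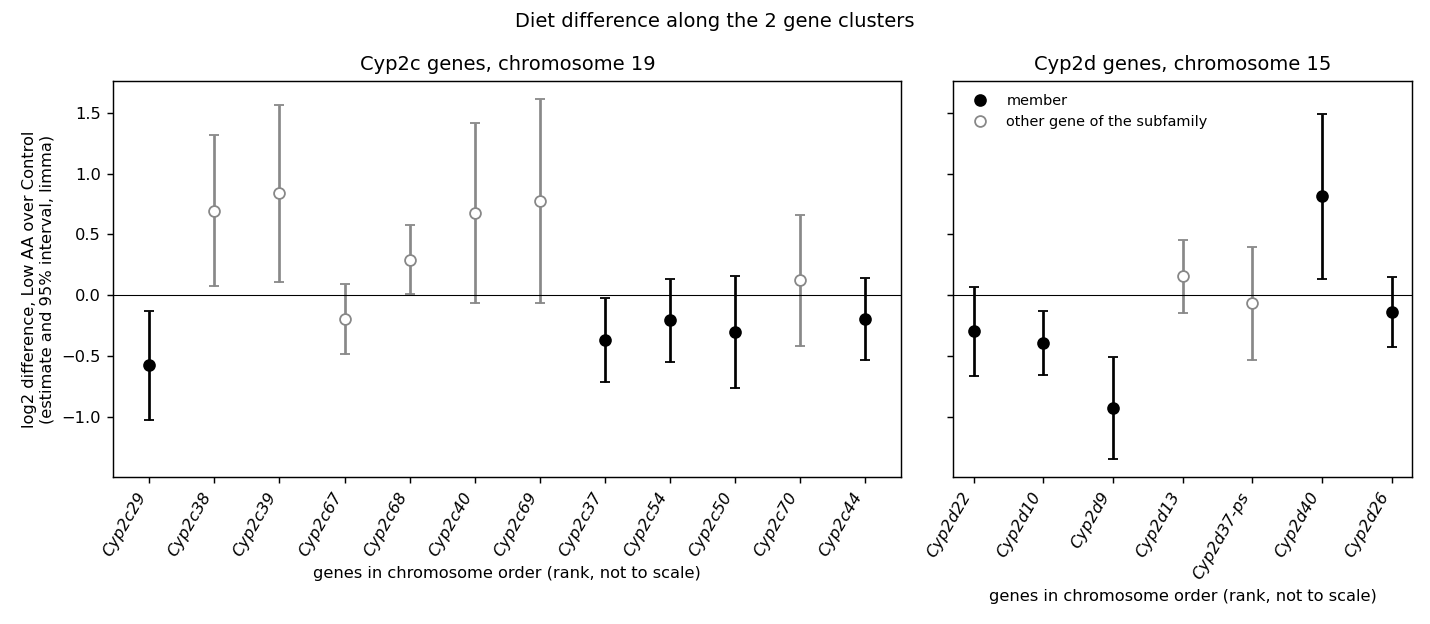
Log2 difference (y axis, Low AA over Control, limma estimate with its 95% interval) of the Cyp2c genes on chromosome 19 and the Cyp2d genes on chromosome 15, placed by their order on the chromosome, with members filled and the other genes of the subfamily open. Cyp2c29 and the genes from Cyp2c37 to Cyp2c50 are below 0, 5 of the 6 genes between them are above 0, and Cyp2d9 and Cyp2d40 are the farthest apart in their cluster.

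The members need partners for electron transfer and heme supply, and 21 such genes had a median log2 difference of -0.01. Of them 0 were called in limma, where 0.399% of all genes were, and 4 were lower at an unadjusted p under 0.05, against 6.7% of all genes. Por, the reductase that feeds all microsomal P450 enzymes, had 0.10 (limma adjusted p = 0.874), and Alas1, the rate-limiting enzyme of heme synthesis, 0.12 (limma adjusted p = 0.940). The lowest p values were those of the heme-binding protein Pgrmc1 at -0.32 (limma adjusted p = 0.257) and of Fech, which inserts the iron of heme, at -0.29 (limma adjusted p = 0.266).

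The median over 24 transcription factors of liver P450 genes was 0.05. Of them 0 passed in limma, against 0.399% of all genes, and 3 were lower and 1 higher at an unadjusted p under 0.05, against 6.7% and 5.13% of all genes. Nr1i3 (CAR) and Nr1i2 (PXR), the receptors that induce Cyp2c29 and other drug-metabolising genes, both had a log2 difference of 0.18 (limma adjusted p = 0.696 and 0.735), and Hnf4a had 0.08 (limma adjusted p = 0.899). The orphan receptor Nr2f2 had -0.42 (limma adjusted p = 0.188). Of 13 genes of growth hormone signalling and sex-biased control, 0 passed, 3 were higher at an unadjusted p under 0.05, against 5.13% of all genes, and the median was -0.005. Prlr, the prolactin receptor, was 1 of the 3.26% of all genes that lay higher on the Low AA diet without overlap, with 2099 to 2862 scaled read counts against 1136 to 1974 (log2 difference 0.73, limma adjusted p = 0.170). Stat5a had 0.52 (limma adjusted p = 0.266).

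Of 19 genes listed from arachidonate oxidation, 2 were called, both lower on the Low AA diet, against 0.297% of all genes in that direction. They were the omega-hydroxylases Cyp4a12a, with 10500 to 16692 scaled read counts on the Control diet and 2289 to 3813 on Low AA (log2 difference -2.02, limma adjusted p = 0.00198), and its close relative Cyp4a12b, with which it can share reads (log2 difference -1.80, limma adjusted p = 0.00201). Cyp4a12a is, like Cyp2d9, a classical male-predominant gene. At an unadjusted p under 0.05, 5 of the 19 were lower and 1 higher, against 6.7% and 5.13% of all genes. Ephx1 had -0.66 (limma adjusted p = 0.0653) and lay lower without overlap, as 3.55% of all genes did. Ephx2, soluble epoxide hydrolase, had 0.05 (limma adjusted p = 0.910), and the epoxygenase Cyp2j5 had 0.03 (limma adjusted p = 0.939). The median over the 19 was -0.02.

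Zonation markers were looked at because Cyp2c29 and its relatives are expressed mainly by hepatocytes around the central vein. Of 18 pericentral genes 0 were called in limma, where 0.399% of all genes were. At an unadjusted p under 0.05 there were 3 lower, against 6.7% of all genes. The median log2 difference of the list was -0.16, with 14 genes below 0 against 49.5% of all genes, and Cyp2e1, the ethanol-oxidising P450, had -0.10 (limma adjusted p = 0.890). The smallest p values in that list were those of Cyp27a1, a sterol hydroxylase, at -0.54 (limma adjusted p = 0.0847) and Cyp1a2 at -0.59 (limma adjusted p = 0.246). Of 19 periportal genes 0 were called, 4 were lower and 1 higher at an unadjusted p under 0.05, against 6.7% and 5.13% of all genes, and the median was -0.08. The smallest p values there were those of Etnppl, listed as Agxt2l1, at -1.01 (limma adjusted p = 0.0738) and Pigr at -0.73 (limma adjusted p = 0.0793). The summed markers of other cell types overlapped between diets. Kupffer cell markers ran from 7369 to 10923 scaled read counts on the Control diet and from 7813 to 11126 on Low AA, and sinusoidal endothelial markers from 5529 to 7569 and from 6660 to 7125. Stellate cell markers ran from 7509 to 9777 and from 7716 to 9666, and the 4 cholangiocyte markers found from 1124 to 2265 and from 826 to 1316. For blood, 4 of 6 markers ran from 7206 to 27464 and from 9211 to 13541, with F2212 the highest, and 1 adipocyte marker of 6, Fabp4, from 147 to 743 and from 209 to 1050. No marker of these lists was called, and their part in the members' values was not tested.

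The genes most like the members over the 8 mice were found by the mean absolute difference of centred log2 values. For the mean of the Cyp2c members these were Fgfr4 (0.040), Pkdcc (0.048) and Gba2 (0.060), and for the mean of the Cyp2d members Rps6kb2 (0.047), Trim11 (0.057) and Timd2 (0.061). For Cyp2d9 they were Brdt (0.110), Prnp (0.124) and Rd3 (0.130), and for Cyp2d10 Fbxl12 (0.042), Fam113b (0.059) and BC026585 (0.061). These values describe likeness in 8 mice that share their diets, with no test.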

How the data were processed

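Poly(A) RNA from 8 livers, 4 Control and 4 Low AA, had been sequenced from stranded libraries. The authors deposited 1 table with a signal for each of 11784 genes and each mouse, which is a read count after scaling and rounding, together with the fold change and FDR of their own comparison, which were not used. The submitters' processing notes name STAR 2.5.0a, RSEM 1.2.6, edgeR 3.10.5 and mm10, without the settings. That the values were scaled was inferred from nearly equal medians and from gaps among low whole numbers. Each gene reached 28 in at least 3 mice, so low genes had been removed before deposit.

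Values were compared as log2(value + 1) by limma (version 3.58.1, R 4.3.3), with a trended prior variance and the p adjusted over the whole table by the Benjamini-Hochberg method, at 0.05. Requiring a value of 1 or more in 4 mice or more took out 0 genes. The fit was tested on simulated data with 200 changed genes and the same relative spread set for all genes. It called 15.5% of genes changed by a log2 of 0.5, 94% of those changed by 1 and 100% of those changed by 1.5. With no change simulated it called 0 genes. A member that did not pass is therefore not shown to be unchanged. Count models were not applied because the values are not raw counts. The mouse codes pair no mice across diets, and replicates were numbered in accession order.

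The members, lists and tests were chosen with earlier results of these data known. Genes named were the members, the other Cyp2c and Cyp2d genes, called genes of each list or else the 2 smallest p, and the 3 genes nearest to 4 profiles. One gene that this rule names is not reported here. Por, Alas1, Nr1i2, Nr1i3, Hnf4a, Ephx2, Cyp2j5 and Cyp2e1 were named for their roles, and Ephx1 for its p, after their values were seen. Older symbols were matched through an NCBI gene table. Positions and transcripts were from GENCODE M21, promoter windows from RefSeq, and identities from global alignment with Biopython 1.88. Figures were drawn with matplotlib 3.10.9. Alternatives were other pseudocounts, filters, scalings and variance models and each mouse left out.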

Additional observations from a re-analysis of the deposited data

Results flagged for a closer look

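Each member and the mean of each subfamily was examined within each diet for 1 mouse far from the other 3, 24 groups in all, of which chance flags about 1 in 20. In 3 groups the gap between the extreme mouse and its neighbour, divided by the range, passed Dixon's 95% critical value for 4 samples. Control mouse F7111 stood above the other Control mice for Cyp2c50 (gap over range 0.855), with 15961 scaled read counts against 9760 to 10657. The same mouse stood below them for Cyp2d10 (0.841), with 19826 against 21922 to 22317. Low AA mouse H828 stood below the other Low AA mice for the mean of the Cyp2c members (0.874).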

How the results depend on the processing

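The sign of each member held under the 18 other fits, and 9 of the 10 members were called in none of them. Some of these fits could not change a sign. Without the filter, which took out 0 genes, the fit was the main fit again. The 8000-gene set, the fit without a mean-variance trend, robust moderation and observation weights left each estimate of a member as it was. Only the other pseudocounts, scalings, weights for each mouse and mice left out could move an estimate. Cyp2d9 was called with weights for each mouse (-1.001) and without Control mouse F2212 (-1.03), so that 1 member was called in each of these and also 1 at an adjusted p under 0.1. By the exact permutation test alone, unadjusted, Cyp2d9 (-0.93) and Cyp2d10 (-0.40) passed. Every gene whose diets do not overlap passes that test, and 6.81% of all genes did not overlap. The test therefore adds nothing to the lack of overlap given above. With mice left out 1 at a time the members called ran from 0 to 1, Cyp2d9 from -1.07 to -0.78, the Cyp2c mean from -0.41 to -0.23 and the Cyp2d mean from -0.28 to -0.07. Over all genes 47 were called, 35 lower and 12 higher. The counts were 19, 14 and 5 among the 8000 genes with the highest mean, 30, 23 and 7 without a mean-variance trend, and 161, 96 and 65 with weights for each mouse. With mice left out they ran from 16 to 77, 12 to 51 and 4 to 26, the lowest without H817 and the highest without F2212, and the total was 19 without H828, 21 without H1126 and 29 without F129. Over the 8 lists of related genes 2 were called, where 0.399% of all genes were. With weights for each mouse 8 were called, where 1.37% of all genes were. These were 3 of 11 other Cyp2 genes, 3 of 19 arachidonate genes, and 1 each of 13 growth hormone, 18 pericentral and 19 periportal genes, some on more than 1 list. With mice left out the count ran from 2 to 4. Without F2212, the fit with 77 calls over all genes, 1 other Cyp2 gene (0 to 1) and 1 periportal gene (0 to 1) were added. Without F7111 the arachidonate list had 3 called genes. Other pseudocounts, scalings, robust moderation and observation weights moved no call of a member. No paired analysis was possible because no mouse code occurs on both diets. edgeR and DESeq2 were not run, since the values are scaled.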

Other observations

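The 11 other Cyp2 genes of the table held no called gene in limma, where 0.399% of all genes were called. At an unadjusted p under 0.05 there were 2 lower and 2 higher, against 6.7% and 5.13% of all genes. The median log2 difference was -0.10, with 7 genes below 0, where 49.5% of all genes were. Cyp2b9, a female-predominant gene of mouse liver named here after its values were seen, had 2940, 276, 861 and 23 scaled read counts in Low AA mice H1126, H828, H817 and H1315, and 3, 94, 5 and 0 in Control mice F129, F2212, F7111 and F2110 (limma adjusted p = 0.161). The groups overlapped, since F2212 lay above H1315, and the values within the Low AA diet were spread widely. Cyp2f2, a periportal enzyme that also activates naphthalene, was 1 of the 3.55% of all genes that lay lower on the Low AA diet without overlap. It had 14724 to 26941 scaled read counts on the Control diet and 10826 to 13212 on Low AA (log2 difference -0.77, limma adjusted p = 0.131). Cyp2r1, a vitamin D hydroxylase, had 98 to 193 on the Control diet and 61 to 99 on Low AA (log2 difference -0.99, limma adjusted p = 0.110). The highest Low AA value of Cyp2r1, that of H1315, lay just above the lowest Control value, that of F2110.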
